A study of Mus musculus with 6 samples.

Results

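The subunits of oxidative phosphorylation were compared between CD31-sorted peritoneal cells, labelled as ECs, of PD mice and saline mice, by respiratory complex and by genome of origin. Members were taken by gene symbol, as the genes named for subunits of complexes I to V, with a mean of at least 10 counts over the 6 mice. The symbols matched 101 genes and 95 of them reached that mean, out of 22183 genes in the table. Of the 95 members, 82 are encoded in the nucleus and 13 in mitochondrial DNA (mtDNA). Wild-type male C57BL/6J mice, 8 to 10 weeks old, received an intraperitoneal injection of high-glucose Dianeal PD fluid (3 PD mice) or of saline (3 saline mice) every day for 6 weeks. Cells carrying CD31, the adhesion molecule encoded by Pecam1, were then sorted from peritoneal tissue of each mouse, and their polyadenylated RNA was sequenced as 1 library per mouse.

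Oxidative phosphorylation is the step of respiration in which electrons from NADH and succinate pass along the inner mitochondrial membrane to oxygen while protons are pumped out. Complex I takes electrons from NADH and complex II from succinate, complex III hands them to cytochrome c, complex IV passes them to oxygen, and complex V (ATP synthase) uses the returning protons to make ATP. Complexes I, III, IV and V are built from subunits of both genomes, and complex II from nuclear genes alone. ECs draw much of their ATP from glycolysis, and their mitochondria are also known as a source of biosynthetic precursors and of signalling molecules.

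The 6 libraries held between 21973426 and 26374292 counts, and 14005 genes passed the filter on low counts. Levels are given as CPM (counts relative to the scaled library size), and changes as the log2 fold change of PD mice over saline mice. A gene was said to be higher or lower in PD mice, to rise or to fall, only where its adjusted p in edgeR's quasi-likelihood test was under 0.05. By that rule 58.9% of all genes tested differed, 31.1% being higher and 27.8% lower in PD mice, with a median log2 fold change of 0.02 over all genes. The endothelial label was checked against its markers. All 12 endothelial markers were detected, with sums of 1267–1277 CPM in saline mice and 2060–2161 in PD mice. Pecam1 was at 469 ± 19.4 CPM in saline mice and 513 ± 7.85 in PD mice (SD, n = 3). It encodes the antigen used for sorting, so its level does not check the label. Cdh5, another of the 12, was at 18.9 ± 2.71 and 33.3 ± 1.03 CPM. Leukocyte markers went against the label. Per length, the pan-leukocyte gene Ptprc was at 601 to 658 FPKM (read level divided by gene length and library size) in saline mice and 388 to 401 in PD mice, where Pecam1 was at 142 to 149.8 and 155 to 164. The 10 B cell markers summed to 7787–8052 and 6438–6598 FPKM, above the 12 endothelial markers at 477–484 and 755–824 FPKM. In both groups the libraries thus held more marker RNA of leukocytes than of ECs, and the values below are those of the mixture. Summed marker levels of other cell types moved with the treatment. In CPM, the 10 B cell markers together stood at 13277 to 13870 in saline mice and 10457 to 10817 in PD mice. Of these 10 markers 9 were lower (median -1.02 over the list). The other, Ighm, was higher (log2 fold change 0.20, edgeR adjusted p = 0.016). That call was lost without saline mouse 1 (edgeR adjusted p = 0.069) or PD mouse 2 (0.055). Ighm had means of 6189 CPM in saline mice and 7107 in PD mice, so the sum understates the fall of the 9. The 10 T and NK cell markers together stood at 2701 to 2803 and 2138 to 2401 CPM, with 5 lower and 1 higher. The 10 macrophage and dendritic cell markers rose without exception, from 2185–2310 to 9072–9755 CPM, and the 15 pancreatic acinar markers did so from 5.15–11.0 to 10525–14525 CPM. Markers of fibroblasts rose in 10 of 10 cases (335–390 to 1410–1418 CPM in sum) and of mesothelial cells in 10 of 10 (34.0–39.6 to 236–269). Those of neutrophils rose in 8 of 9 tested (37.4–41.9 to 332–347) and of pericytes and smooth muscle in 9 of 10 (293–314 to 468–516). Of 7 adipocyte markers tested, 3 rose and 2 had negative estimates. Their list summed to 509–619 and 781–818 CPM, most of it from the 1 gene Fabp4, with means of 492 and 699 CPM. The part of these cells in the values below was not tested, and in bulk libraries fewer cells of a type and less RNA per cell cannot be told apart.

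Nuclear-encoded subunits were lower in PD mice while most mtDNA-encoded subunits were not. Of the 82 nuclear members, 59 fell (72.0%, beside 27.8% of all genes tested), 1 rose and 22 did not pass the test. Their median log2 fold change was -0.30, and 77 of the 82 estimates were negative. Of the 13 mtDNA-encoded members, 4 rose (beside 31.1% of all genes tested), 1 fell and 8 did not pass, with a median of 0.14. The groups did not overlap, with PD mice lower, for 60 nuclear members and 1 mtDNA-encoded member, beside 31.6% of all genes (65.6% in either direction). With PD mice higher, they did not overlap for 1 nuclear and 5 mtDNA-encoded members, beside 34.0% of all genes. These directions are relative to the whole library. When libraries were scaled to the endothelial markers instead, 11 of which were themselves higher in PD mice, the median of all genes moved to -0.93, the nuclear median to -1.25 and the mtDNA-encoded median to -0.81. Taken relative to the median of all genes, the nuclear median was -0.32 under both scalings, and the mtDNA-encoded median was 0.13 and 0.12.

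**Figure D1:**
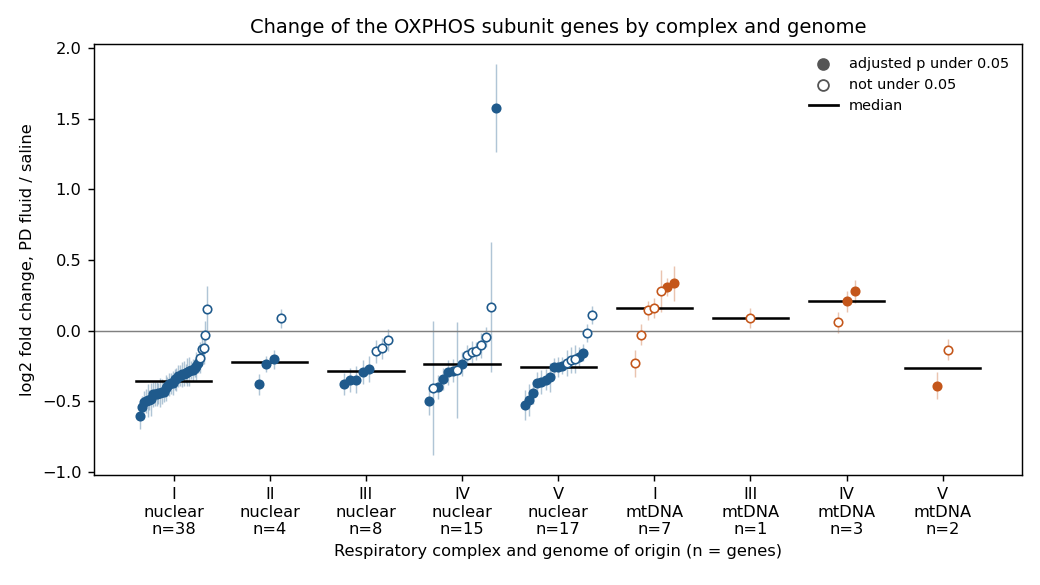
Log2 fold change of PD mice over saline mice (y axis) for each of the 95 members, grouped by complex and genome (x axis). Points are genes with their standard errors, filled where the adjusted p was under 0.05, and black bars are medians. The nuclear groups have medians between -0.36 and -0.22, and the point at 1.58 is Cox6a2.

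The balance between the genomes was also read within each library, where no scaling between libraries enters. Nuclear members made up 37.8%, 38.0% and 38.0% of all subunit counts in the 3 saline mice and 32.6%, 34.5% and 32.5% in the 3 PD mice. Every PD mouse was below every saline mouse. As a share of all counts in a library, nuclear members held 0.993% ± 0.0386 in saline mice and 0.833% ± 0.0178 in PD mice (SD, n = 3). The mtDNA-encoded members held 1.62% ± 0.0682 and 1.68% ± 0.0853.

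By complex, the nuclear share of complex I counts was 61.6% to 62.4% in saline mice and 50.6% to 54.3% in PD mice. The nuclear share of complex III was 32.0% to 32.5% and 26.0% to 27.4%, and that of complex IV 18.2% to 18.9% and 14.5% to 16.0%. In these complexes the groups were apart. For complex V the groups overlapped, at 32.9% to 33.2% in saline mice and 30.8% to 34.2% in PD mice.

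**Figure D2:**
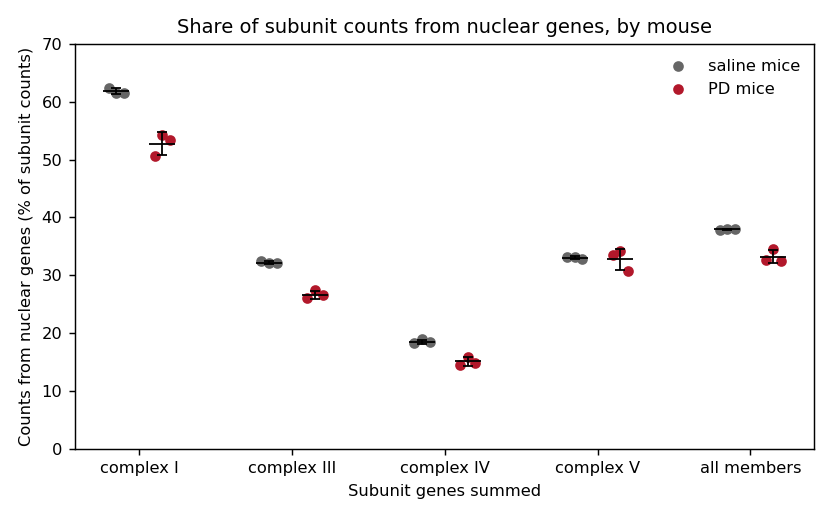
Share of subunit counts that came from nuclear genes (y axis, % of the counts of the subunits summed) in each mouse, for complexes I, III, IV and V and for all members. Points are mice, with the mean and SD of each group of 3. Complex I shows the widest gap, from 61.6–62.4% in saline mice to 50.6–54.3% in PD mice, and complex V shows none.

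Complex I held the largest nuclear group, with a median log2 fold change of -0.36. Of its 38 nuclear members 33 were lower in PD mice (86.8%, beside 27.8% of all genes tested) and none was higher. The N module, which binds NADH and takes up its electrons, was lower in 10 of 10 members (median -0.43). The Q module, which reduces ubiquinone, was lower in 4 of 5 (median -0.34). The membrane arm with its interface subunits was lower in 18 of 21 (median -0.32). All 7 of the nuclear core subunits conserved from bacteria were lower, and so were 26 of the 31 accessory subunits. The symbols Ndufa4 and Ndufa4l2, its isoform, are counted here as accessory by their names, although the Ndufa4 protein is now placed in complex IV. Leaving out each mouse gave 27 to 34 lower nuclear members of complex I. With the trend over gene length removed, 9 members of the N module, 3 of the Q module and 11 of the membrane arm were lower. In the membrane arm 1 member was then higher (median -0.17).

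Ndufa3, an accessory subunit of the membrane arm, had the lowest fold change of all members. It stood at 62.0, 54.2 and 56.0 CPM in the saline mice and at 38.3, 33.9 and 41.1 CPM in the PD mice. No PD mouse reached a saline mouse, and the log2 fold change was -0.60 ± 0.09 (SE; edgeR quasi-likelihood, adjusted p = 0.00025). Ndufs4, an accessory subunit needed to complete the assembly of the matrix arm, was at 59.1, 61.1 and 56.3 CPM in saline mice and at 40.1, 41.1 and 40.3 CPM in PD mice. It was 31.2% lower, a log2 fold change of -0.54 ± 0.07 (edgeR adjusted p = 0.00011), with the groups well apart. Ndufv2, a core iron-sulphur subunit of the N module, was at 182, 178 and 169 CPM in saline mice and at 112, 127 and 135 CPM in PD mice. It too was below in every PD mouse, with a log2 fold change of -0.50 ± 0.08 (edgeR adjusted p = 0.00024).

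The members of complex I that did not pass the test were Ndufa5 (log2 fold change -0.19), Ndufa8 (-0.13), Ndufc2 (-0.12), Ndufs5 (-0.03) and Ndufa4l2 (0.15). Ndufa4l2, the isoform of Ndufa4 known to be induced by hypoxia, stayed scarce. Per transcript length it made up 2.52% to 3.62% of the summed FPKM of the pair in saline mice and 3.78% to 4.60% in PD mice. Ndufa4 itself fell, with a log2 fold change of -0.32 (edgeR adjusted p = 0.0042).

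Complex II, succinate dehydrogenase, also serves the citric acid cycle. Sdha, its flavin-bearing catalytic subunit, was at 441, 463 and 449.9 CPM in saline mice and at 386, 386 and 374 CPM in PD mice, a log2 fold change of -0.24 ± 0.06 (edgeR adjusted p = 0.0036). Sdhb, the iron-sulphur subunit, was at 257, 273 and 259.7 CPM against 186, 196 and 225 CPM, a log2 fold change of -0.38 ± 0.08 (edgeR adjusted p = 0.0013). Both were lower in all 3 PD mice. Of the membrane anchors, Sdhd fell by 0.21 on the log2 scale (edgeR adjusted p = 0.026), a call that was lost without saline mouse 1 or PD mouse 1 or 2 (adjusted p from 0.075 to 0.12). Sdhc was at 112, 121 and 113 CPM in saline mice and at 119, 129 and 118 CPM in PD mice, where the groups overlapped (log2 fold change 0.09, edgeR adjusted p = 0.29). The difference between the anchors was not tested.

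In complex III, 5 of 8 nuclear members were lower in PD mice (62.5%, beside 27.8% of all genes tested) and none was higher, with a median of -0.28. Uqcrc1, a core protein on the matrix side, was the nuclear member with the highest FPKM in saline mice. It was at 599.7, 635 and 620.1 CPM in saline mice and at 433, 464 and 530.3 CPM in PD mice. The groups were apart, although the PD mice spread widely, and the log2 fold change was -0.38 ± 0.08 (edgeR adjusted p = 0.0015). The small subunits Uqcrq and Uqcr10 each had a log2 fold change of -0.35 (edgeR adjusted p = 0.0045 and 0.0099), and without saline mouse 1 the call of Uqcr10 was lost (edgeR adjusted p = 0.062). Uqcrfs1, the Rieske iron-sulphur protein, did not pass the test, with a log2 fold change of -0.13 (edgeR adjusted p = 0.15). Cyc1, the cytochrome c1 heme protein of the same complex, is not matched by the symbol rule and had a log2 fold change of -0.19 (edgeR adjusted p = 0.017), a call lost without saline mouse 1 (edgeR adjusted p = 0.094) or PD mouse 2 (0.076) and with the trend over gene length removed (0.077). Without saline mouse 1, the count of lower members in complex III was 3.

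Complex IV, cytochrome c oxidase, was the least uniform. Of its 15 nuclear members, 6 fell, 1 rose and 8 did not pass the test, with a median of -0.23. Among its 10 ubiquitous subunits 5 fell. The count of 6 rested on single mice, being 3 without saline mouse 1 and 10 without saline mouse 3. With the trend over gene length removed, 2 of the 15 were lower and 2 higher (median -0.03).

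Cox7c, a small membrane subunit, was at 109.5, 114 and 93.3 CPM in saline mice and at 66.4, 73.1 and 84.6 CPM in PD mice. All PD mice were lower, with a log2 fold change of -0.50 ± 0.10 (edgeR adjusted p = 0.0016). Cox5b, which binds zinc on the matrix side, had a log2 fold change of -0.34 (edgeR adjusted p = 0.0033). Cox7a2l, known for joining complexes III and IV into supercomplexes, had one of -0.40 (edgeR adjusted p = 0.0018). In contrast Cox5a was at 109, 116 and 105 CPM in saline mice and at 99.2, 109 and 111 CPM in PD mice, overlapping, with a log2 fold change of -0.05 (edgeR adjusted p = 0.58).

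The tissue isoforms of complex IV were compared with their common partners. Cox6a2, the heart and skeletal muscle form of subunit VIa, was the 1 nuclear member that rose. It had 16, 23 and 16 counts in the saline mice and 71, 54 and 46 counts in the PD mice, or 0.625, 1.06 and 0.662 CPM against 2.61, 2.26 and 2.08 CPM. All PD mice were above all saline mice, with a log2 fold change of 1.58 ± 0.31 (edgeR adjusted p = 0.0014). Under scaling to the endothelial markers its log2 fold change was 0.63 and the call was lost (edgeR adjusted p = 0.099).

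It remained a minor form. Cox6a2 made up 0.288% to 0.469% of the FPKM of the Cox6a1 and Cox6a2 pair in saline mice and 1.02% to 1.43% in PD mice. Cox6a1 had a log2 fold change of -0.15 (edgeR adjusted p = 0.11). Of the 10 muscle markers 5 passed the filter, of which Actn2 rose (log2 fold change 0.59, edgeR adjusted p = 0.0078) and Mylpf fell (-1.15, adjusted p = 9.6e-05). Mb, Myh1, Myh4 and Myh6 were at 3 counts or fewer in every mouse, and the summed level of the list was 25.3 to 26.4 CPM in saline mice and 19.1 to 23.5 in PD mice.

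The other tissue forms were scarce and did not pass the test. Cox4i2, the lung and hypoxia form, made up 0.601% to 1.39% of the FPKM of its pair with Cox4i1 in saline mice and 0.792% to 1.03% in PD mice. Cox6b2, the testis form, and Cox7a1, the muscle form, had means of 13.3 and 10.3 counts, the lowest among members. Just below the minimum of 10 lay Cox8b with a mean of 3 counts. The remaining excluded genes, Cox5b-ps, Cox8c, Cox7b2, Ndufb11b and a further identifier of Atp5o, had a mean of 0.167 or of 0. The ubiquitous partners Cox7a2 and Cox7b fell, with log2 fold changes of -0.23 and -0.30 (edgeR adjusted p = 0.034 and 0.014), and Cox7a2 lost its call with mouse number as a block (edgeR adjusted p = 0.061). Cox4i1, Cox6b1 and Cox8a had log2 fold changes of -0.15, -0.17 and -0.10 and did not pass.

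Complex V, ATP synthase, was lower in 12 of 17 nuclear members (70.6%, beside 27.8% of all genes tested), with a median of -0.26. Without saline mouse 1 that count was 8. Of the 5 subunits of the F1 head 2 fell (median -0.16), beside 4 of 4 in the peripheral stalk that holds the head still (median -0.31) and 4 of 5 small membrane subunits (median -0.37). Of the 3 genes for the rotating c ring 2 fell (median -0.21). With the trend over gene length removed, the counts were 2 of 5 in the head (median 0.05), 3 of 4 in the stalk, 1 of 5 among the small membrane subunits (median -0.13) and 0 of 3 in the c ring. Whether these parts differed from each other was not tested.

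Atp5b, the catalytic beta subunit, was at 647, 654 and 614 CPM in saline mice and at 717, 701 and 650.3 CPM in PD mice. The groups overlapped, and the log2 fold change was 0.11 ± 0.06 (edgeR adjusted p = 0.14). Atp5a1, the alpha subunit, had a log2 fold change of -0.16 (edgeR adjusted p = 0.042), a call lost with mouse number as a block (edgeR adjusted p = 0.058) and on leaving out any mouse but saline mouse 3 (0.056 to 0.11). Atp5d, the delta subunit, had one of -0.02 (edgeR adjusted p = 0.82). Atp5h, subunit d of the stalk, was at 183, 177 and 159.6 CPM in saline mice and at 117, 131 and 135 CPM in PD mice. It was below in every PD mouse, with a log2 fold change of -0.44 ± 0.08 (edgeR adjusted p = 0.0006). Atp5k, subunit e of the membrane part, was at 29.0, 28.6 and 26.0 CPM against 17.0, 20.7 and 20.4 CPM, a log2 fold change of -0.53 ± 0.11 (edgeR adjusted p = 0.0016). Atp5md, which is involved in the pairing of ATP synthases, had a log2 fold change of -0.49 ± 0.11 (edgeR adjusted p = 0.003). Atpif1, the inhibitor of ATP synthase and not a member, had one of -0.11 (edgeR adjusted p = 0.45).

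The mtDNA encodes the hydrophobic subunits at the heart of the complexes, transcribed as long precursors from both strands and cut into shorter messages. Genes that overlap are not necessarily on separate messages. All 13 protein-coding mitochondrial genes were members, and the directions given for them are those under scaling to the whole library, since all 13 were lower under scaling to the endothelial markers. Among the proton-pumping subunits of complex I, mt-Nd4 was at 646, 705 and 668 CPM in saline mice and at 834, 789 and 881 CPM in PD mice. It rose in every PD mouse, with a log2 fold change of 0.31 ± 0.06 (edgeR adjusted p = 0.0018). Its neighbour mt-Nd4l was at 29.2, 25.9 and 23.3 CPM in saline mice and at 38.8, 29.6 and 30.5 CPM in PD mice, which were all higher (log2 fold change 0.34 ± 0.12, edgeR adjusted p = 0.038). The call of mt-Nd4l was lost without saline mouse 2 or 3 or PD mouse 1 (edgeR adjusted p from 0.060 to 0.17). The remaining complex I genes did not pass, with log2 fold changes of 0.14 for mt-Nd1, 0.16 for mt-Nd2, 0.28 for mt-Nd3, -0.03 for mt-Nd5 and -0.23 for mt-Nd6.

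In complex IV, mt-Co2, which receives electrons from cytochrome c, was at 822, 819 and 693 CPM in saline mice and at 1013, 878 and 941 CPM in PD mice (log2 fold change 0.28 ± 0.08, edgeR adjusted p = 0.012). mt-Co3 was at 1518, 1453 and 1329 CPM against 1688, 1531 and 1739.6 CPM (log2 fold change 0.21 ± 0.07, edgeR adjusted p = 0.030). Both were higher in all PD mice, but mt-Co3 lost its call without saline mouse 3 or PD mouse 1 or 3 (edgeR adjusted p from 0.067 to 0.11). mt-Co1, the catalytic subunit, was at 3548, 3512 and 3148 CPM in saline mice and at 3408, 3387 and 3834 CPM in PD mice, overlapping (log2 fold change 0.06, edgeR adjusted p = 0.52). mt-Cytb, cytochrome b of complex III, also overlapped between the groups, with a log2 fold change of 0.09 (edgeR adjusted p = 0.30).

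Both ATP synthase genes of the mtDNA had negative estimates. mt-Atp8 was at 169, 144 and 131 CPM in saline mice and at 113, 103 and 123 CPM in PD mice. It was lower in every PD mouse, with a log2 fold change of -0.39 ± 0.10 (edgeR adjusted p = 0.0053). mt-Atp6, part of the proton channel, was at 5737, 5844 and 5393 CPM in saline mice and at 4856, 4904 and 5683 CPM in PD mice, where the groups overlapped (log2 fold change -0.14, edgeR adjusted p = 0.14). These genes lie end to end. mt-Atp8 shares 43 bases with mt-Atp6, mt-Atp6 shares 1 base with mt-Co3, and mt-Nd4l shares 7 bases with mt-Nd4, so that reads may be assigned to either gene. The libraries do not record strand, so mt-Nd6 cannot be told apart from RNA of the opposite strand, and reads may also be shared with nuclear copies of mtDNA and with the processed pseudogenes of many nuclear members.

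**Figure D3:**
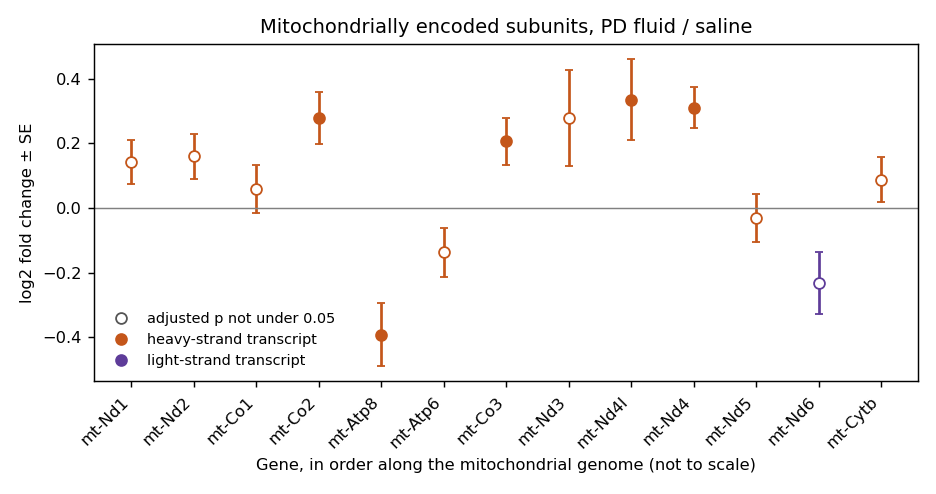
Log2 fold change of PD mice over saline mice (y axis, ± SE) of the 13 mtDNA-encoded members in their order along the mitochondrial genome (x axis, not to scale). Filled points had an adjusted p under 0.05, and colour marks the strand of the transcript. mt-Atp8 (-0.39) and mt-Atp6 (-0.14) lie between mt-Co2 (0.28) and mt-Co3 (0.21) on the same strand, and under scaling to the endothelial markers all 13 were lower.

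Levels per transcript length, read from the FPKM values of the deposited table, ordered the members in a similar way in both groups. mt-Atp6 was highest, with a mean of 8279 FPKM in saline mice and 7576 in PD mice. It was followed by mt-Cytb (2348 and 2509.5), mt-Co1 (2194 and 2299), mt-Co3 (1822 and 2116) and mt-Co2 (1133 and 1386). Over the 6 mice mt-Cytb ran from 2287 to 2654 FPKM and mt-Co1 from 2045 to 2424, so these neighbours overlapped. The highest nuclear members in saline mice were Uqcrc1 at 375 FPKM, Atp5b at 332 and Cox6a1 at 309. In PD mice Atp5b, at 361 FPKM, stood above Uqcrc1, at 289.8.

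Nuclear members are short genes, and gene length moved with the treatment effect. Lengths were derived from the deposited counts and FPKM. Those of the nuclear members ran from 365 to 2872 bases with a median of 710, beside a median of 2556 over all genes tested. All tested genes were divided by length into 5 bins of 2801. In the bin of the shortest genes, 39.4% of the genes that were not members were lower in PD mice, with a median log2 fold change of -0.16. The 72 nuclear members in that bin were lower in 50 cases (69.4%), with a median of -0.32. In the next bin, 6 of 7 members were lower beside 29.3% of other genes, and in the middle bin 3 of 3 beside 25.7%. In the bin of the longest genes, which held no member, 20.2% of genes were lower and the median was 0.18.

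With the trend over length removed from the counts, 35 nuclear members were lower and 4 higher, the nuclear median was -0.15 and that of all genes -0.04. The 35 comprised 23 of complex I, 2 of complex II, 2 of complex III, 2 of complex IV and 6 of complex V. Among the genes named above, Uqcrq, Uqcr10, Cox5b, Cox7a2, Cox7b, Ndufa4, Sdhd, Atp5md and mt-Atp8, and also Atp5l, then lost their calls (edgeR adjusted p from 0.056 to 0.87). Of the mtDNA-encoded members, 8 were then higher and none lower, with a median of 0.28. The part of length, or of RNA quality that may move with it, was not tested.

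**Figure D4:**
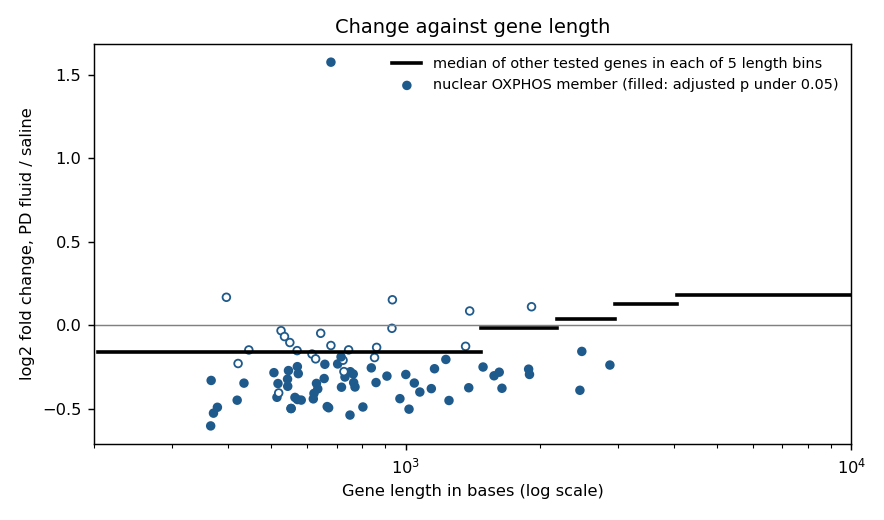
Log2 fold change of PD mice over saline mice (y axis) against gene length in bases (x axis, log scale) for the 82 nuclear members, filled where the adjusted p was under 0.05. Black bars are the medians of the other tested genes in each of 5 length bins, from -0.16 in the shortest to 0.18 in the longest. Most members lie below the bar of their own bin.

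Promoters of nuclear members are known for sites of the respiratory factors NRF1, GABP (an ETS factor) and YY1. RefSeq windows from 250 bases before to 50 after the start (GRCm38.p6) were found for 67 of the 82 nuclear members. The letters GCGCANGCG of the NRF1 core, searched on both strands like the others, were in the windows of 20 members (29.9%), beside 14.2% of tested genes with a window and 7.03% of all genes. CCGGAAG, for GABP, was in 17 (25.4%), beside 18.7% and 9.93%, and AAGATGGC, for YY1, in 10 (14.9%), beside 4.86% and 3.19%. At least 1 of these motifs was present in 39 members (58.2%), beside 32.6% of tested genes. CCGGAAG and AAGATGGC can share the bases AAG, and a match describes letters only.

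Stretches around a match are shown for members of complexes I and V that fell, to place the motif within the promoter. Capitals mark the motif as read on the gene's own strand, 49 bases before the start in Atp5k (chr5:108434415-108434473, minus strand), 59 in Ndufa11 (chr17:56717678-56717736, plus strand), 38 in Atp5h (chr11:115419926-115419982, minus strand) and 212 in Atp5l (chr9:44920923-44920979, minus strand). The capitals are the NRF1 letters in Atp5k and Ndufa11 and the GABP letters in Atp5h and Atp5l. Each window holds the NRF1 letters, and those of Atp5k, Atp5h and Atp5l hold the GABP letters too, so that only Ndufa11 carries a single one of these motifs.
Atp5k: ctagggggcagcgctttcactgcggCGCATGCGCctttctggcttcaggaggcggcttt
Ndufa11: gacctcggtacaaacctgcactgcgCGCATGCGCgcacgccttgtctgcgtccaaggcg
Atp5h: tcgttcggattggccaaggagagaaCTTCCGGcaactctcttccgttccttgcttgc
Atp5l: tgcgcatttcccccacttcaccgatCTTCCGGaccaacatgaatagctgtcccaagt

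Ndufa11, a membrane arm subunit, had a log2 fold change of -0.50 and Atp5l, subunit g of ATP synthase, one of -0.37, a call lost with the length trend removed (edgeR adjusted p = 0.14). Members with and without a motif had medians close to each other. They were -0.26 and -0.34 for NRF1, -0.35 and -0.31 for GABP, and -0.37 and -0.30 for YY1. Of the factors themselves, Nrf1 was at 115 ± 9.33 CPM in saline mice and 99.2 ± 3.93 in PD mice (log2 fold change -0.21, edgeR adjusted p = 0.034), a call lost without saline mouse 3 or PD mouse 1 or 2 (adjusted p from 0.083 to 0.13). Gabpa, the DNA-binding subunit of GABP, had a log2 fold change of 0.05 (edgeR adjusted p = 0.60), and Yy1 one of 0.02 (edgeR adjusted p = 0.9).

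Other mitochondrial gene lists were read beside the subunits, against 27.8% lower and 31.1% higher over all genes tested. Assembly factors, which build the complexes and are not part of them, were lower in 38 of 52 genes and higher in none (median -0.36). Examples were Lyrm7 (50.2% lower), which acts in complex III, and Timmdc1 (44.8% lower), which acts in complex I. The count of lower assembly factors ran from 27 to 37 on leaving out each mouse, and was 30 with the length trend removed. Proteins of the mitochondrial ribosome, which translates the mtDNA-encoded subunits, were lower in 49 of 78 genes and higher in 1 (median -0.33). Mrps18c (-0.72) and Mrps14 (-0.71) fell and Mrps6 (0.87) rose. For the ribosome the count of lower genes ran from 36 to 50 on leaving out each mouse, and was 42 with the length trend removed. The import machinery for nuclear-encoded subunits was lower in 15 of 23 genes (median -0.27), among them Dnajc19 (-0.64) and Timm17a (-0.56). That count was 9 without PD mouse 1 or PD mouse 2 and with the length trend removed, and 10 without saline mouse 1.

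Genes that copy and transcribe mtDNA or drive mitochondrial biogenesis were lower in 19 of 34 cases and higher in 3 (median -0.24). The count of higher genes rested on single mice, being 0 without PD mouse 1 or 2, 1 without saline mouse 2 and 5 without PD mouse 3. Tfam, which packages mtDNA and starts its transcription, was at 61.2 ± 4.16 CPM in saline mice and 39.9 ± 3.95 in PD mice, a log2 fold change of -0.61 (edgeR adjusted p = 0.0002). Ppargc1a, a coactivator of mitochondrial biogenesis, was at 4.84 ± 0.589 and 2.57 ± 0.328 CPM, a log2 fold change of -0.92 (edgeR adjusted p = 0.0025). Both were lower in every PD mouse. Mterf1a (-1.03) and Polg2 (-0.96), an accessory subunit of the mtDNA polymerase, fell. The related coactivator Pprc1 (log2 fold change 0.64) and the polymerase Polg (0.41) passed the test as higher, with overlapping groups, but neither did without PD mouse 1 or 2 (edgeR adjusted p from 0.059 to 0.18), Pprc1 also not without saline mouse 1 (0.057) and Polg not without saline mouse 2 (0.11). Polrmt, the mitochondrial RNA polymerase, did not pass the test (log2 fold change 0.47, edgeR adjusted p = 0.070).

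Of 14 genes of the citric acid cycle, 9 fell and 2 rose (median -0.25), with Sucla2 (-0.47) and Idh3g (-0.39) lower and Dlst (0.33) and Idh2 (0.32) higher. The Sdh genes described above were not in this list. Another list held 22 genes for electron carriers, ubiquinone synthesis and enzymes that feed electrons to ubiquinone. Of these, 8 fell (36.4%, beside 27.8% of all genes) and 2 rose (median -0.17), and 5 fell without saline mouse 1. The genes that fell included Cyc1, described above, and Ndufab1, a complex I subunit that the symbol rule does not match. Coq8a, needed for ubiquinone synthesis, had a log2 fold change of -0.87, and Dhodh, which feeds electrons from pyrimidine synthesis, one of -0.38. Sqor, which feeds electrons from sulphide, rose 2.45-fold, and Coq10b was 39.5% higher. Among 8 tested membrane carriers 2 fell and 2 rose, a share below that over all genes in either direction, with Slc25a5, an ADP/ATP carrier, at -0.45, Vdac2 at -0.38, Ucp2 at 0.41 and Vdac1 at 0.26. Under scaling to the endothelial markers, Mrps6, Pprc1, Polg, Dlst, Idh2, Coq10b, Ucp2 and Vdac1 had negative estimates.

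**Figure D5:**
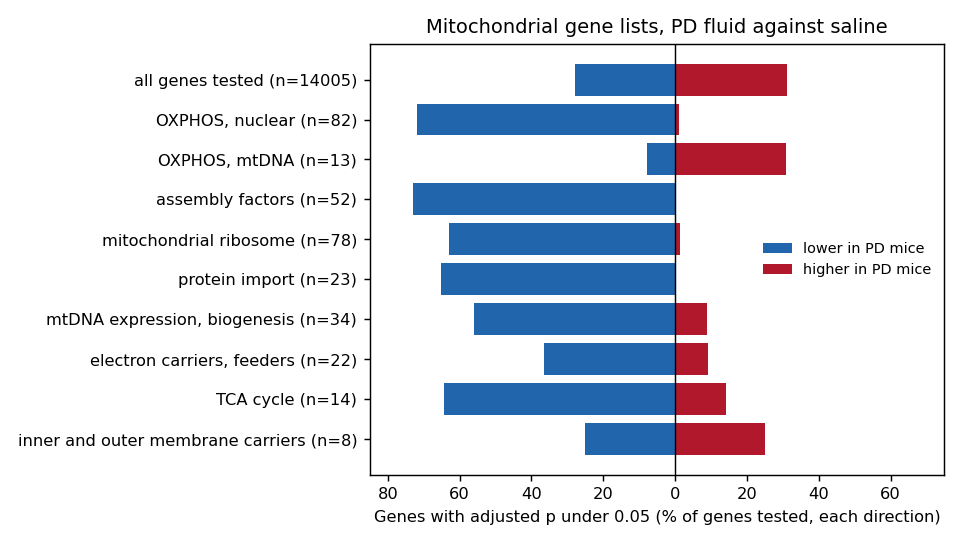
Share of tested genes with an adjusted p under 0.05 (x axis, %, lower in PD mice to the left and higher to the right) for the nuclear and mtDNA-encoded members, the other mitochondrial gene lists and all genes tested (y axis, n = genes tested). Nuclear members (72.0% lower) and assembly factors (73.1%) extend farthest to the left, beside 27.8% of all genes. The mtDNA-encoded members are close to all genes on the right side and below them on the left.

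Of 15 proliferation genes, 11 were lower (73.3%, beside 27.8% of all genes tested), none was higher and 4 did not pass (median -0.42). Ccnb1, which drives entry into mitosis, had a log2 fold change of -0.89 and Bub1, of the spindle checkpoint, one of -0.76, while Mki67 had one of 0.01 (edgeR adjusted p = 0.93). The part of cell division in the values of the members was not tested.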

How the data were processed

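RNA was sequenced from CD31-sorted peritoneal cells of 3 saline and 3 PD mice, 1 library per mouse. The labels name magnetic sorting, and the study's supplement describes fluorescence sorting of CD31+ CD45- cells. The authors deposited 1 table of 22183 genes with a whole-number read count per mouse, not normalized, which may be rounded estimates since the submitters' processing notes name RSEM beside fastp 0.18.0, Bowtie2 2.2.8, HISAT2 and StringTie 1.3.1. The genome build and annotation are not given in the sources used here. The deposited FPKM values, computed by the authors per mouse, were used for levels per length. Gene lengths, and so the length bins and the removal of the length trend, were derived from them together with the counts. Columns with the authors' group means, fold changes, p-values and FDR were not used, and every column of sample values was matched (0 unmatched).

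Counts were analysed in R 4.3.3 with edgeR 4.0.16. Genes were filtered with filterByExpr, scaled by TMM, and PD fluid was compared with saline by the quasi-likelihood test without covariates, and p-values were adjusted over all 14005 genes by the Benjamini-Hochberg method. Standard errors were derived from the F statistic. The paper names limma for differential expression, and limma 3.58.1 (voom) and DESeq2 1.42.0 served as alternatives. The others were mouse number as a block, no filter, upper quartile scaling, library sizes without mitochondrial or acinar genes, scaling to endothelial markers, removal of a length trend, and leaving out each mouse. Replicates of a group differed beyond sampling noise (chi-square per degree of freedom 6.46 to 17.8). Total counts of 21973426 to 26374292 per mouse set the precision, and the floor was set at 3 counts per mouse. On counts simulated for this comparison with 13838 genes, 141 of 198 changed genes were recovered and 5 unchanged genes were called. The simulation changed a far smaller share of genes than differed here, and by larger folds than those of most members. These rates may therefore not hold for the members.

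Members, gene lists and tests were chosen with earlier results of these data known, and subgroups of complexes follow general knowledge of their structure. The genes named are all mtDNA-encoded and Sdh members, the 3 largest changes in each direction per nuclear complex among those past the threshold, tissue isoforms with their partners, the ATP synthase inhibitor, and the 2 largest changes in each direction per pathway list. Cell type lists are given mainly by their sums, and their genes and the other genes named were added after their values were seen. Tables and figures were made with Python 3.11.15, pandas 2.3.3 and matplotlib 3.10.9.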

Additional observations from a re-analysis of the deposited data

How the results depend on the processing

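Counts of nuclear members lower or higher in PD mice were 59 and 1, and those of mtDNA-encoded members 1 and 4. Under scaling to the endothelial markers, 0 nuclear and 0 mtDNA-encoded members were higher, 93 of all members and 13 mtDNA-encoded members were lower, and the medians were -1.25 (nuclear) and -0.81 (mtDNA-encoded, reversed). That scaling lowers every gene by construction and also reversed Cox7a1 (-0.76), Ndufa4l2 (-0.79), Sdhc (-0.86), mt-Co1 (-0.89), mt-Co2 (-0.67), mt-Co3 (-0.74), mt-Cytb (-0.86), mt-Nd1 (-0.81), mt-Nd2 (-0.79), mt-Nd3 (-0.67), mt-Nd4 (-0.64) and mt-Nd4l (-0.61). With the length trend removed, 35 of all members were lower, all of them nuclear (0 mtDNA-encoded), and 12 were higher, 4 nuclear and 8 mtDNA-encoded, with medians of -0.15 and 0.28. Cox4i1 (0.040), Cox6a1 (0.073), Cox6b1 (0.041), Cox8a (0.13), mt-Atp6 (0.061) and mt-Nd6 (0.0076) changed sign, and the cause was not tested. DESeq2, limma-voom and upper quartile scaling each called 2 mtDNA-encoded members lower, the added gene being mt-Nd6.

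Leaving out each mouse gave 3 to 5 higher and 45 to 69 lower of all members, 1 to 2 and 44 to 67 of the nuclear, and 2 to 4 and 1 to 3 of the mtDNA-encoded. The medians ran from -0.37 to -0.25 and from 0.10 to 0.19. The lowest counts of higher members came without saline mouse 3, and the largest of mtDNA-encoded lower members without PD mouse 3. Signs turned for Cox4i2 without saline mouse 1 (range -0.50 to 0.12), Cox7a1 without PD mouse 3 (-0.035 to 0.31) and mt-Nd5 without saline mouse 2 or PD mouse 2 (-0.091 to 0.030). Mice with the same number did not deviate together more than others (correlations 0.11, 0.04 and -0.17, beside -0.27 to 0.23 for mice of different number). With so few mice this cannot settle whether the numbers pair them. With the replicate block 54 nuclear members were lower and 1 higher, and 1 and 4 of the mtDNA-encoded.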
